A study of Rattus norvegicus with 9 samples.

Results

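Livers of rats that had received a burn and CLP, called Burn-CLP, were compared with livers of rats that had undergone 2 sham procedures, called Sham-Sham, on 3 arrays each, which are 6 of the 9 arrays of the series. The arrays were chosen by their titles alone. The third group, Sham-CLP, had CLP after a sham procedure. The labels leave CLP as an abbreviation; in studies of rodents it commonly means cecal ligation and puncture, an operation that releases gut bacteria into the abdomen. Each array measured total RNA of whole liver. No label states the strain, sex, age, burn size or time of collection. The labels also do not say whether the 3 arrays of a group are 3 animals, so p-values rest on the spread among these arrays alone, which could be technical. Every group had a sham or a real procedure at both steps, and no untouched liver was among the samples.

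The liver answers injury and infection with the acute phase response. Cytokines such as interleukin 6 and interleukin 1 act on hepatocytes through STAT3, C/EBP and NF-kB factors, and hepatocytes then secrete defence and carrier proteins such as protease inhibitors and iron-binding proteins, while the production of several ordinary plasma proteins drops. Stress hormones, glucocorticoids above all, raise the uptake and breakdown of amino acids for glucose and urea production in the same organ. Burn injury is known for a long catabolic state in which these hormones stay high.

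Signals are intensities after quantile normalization, which gives every array the same distribution of values. Signals under 64.8 were set to that floor, the 20th percentile of all values, and a probe set was tested where at least 3 of the 9 arrays lay above it. A change is the difference of mean log2 signals, Burn-CLP minus Sham-Sham, given with its standard error (SE). It was called where its limma p-value, adjusted by Benjamini-Hochberg over all 13523 probe sets tested, was under 0.05. Where arrays of a group lay at the floor a fold understates the change, and where all 3 did it is given as "at least". Arrays set to the floor do not differ among themselves, so the SE and p-value of such a probe set can be too small.

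The smallest p-values belonged to rises of the acute phase genes Lcn2, Pla2g2a and A2m. Called genes of amino acid breakdown and transport were all higher (6 genes), and the called members of the lipid droplet, conjugation and P450 lists were lower, while the sulfotransferase gene Sult2b1, in none of these lists, rose. In Burn-CLP against Sham-Sham liver 102 of 13523 probe sets were called, 0.754%, of which 45 (0.333%) were higher and 57 (0.422%) lower. The deposited scaling, in place of quantile normalization, called 92, with 49 higher and 43 lower, and without the filter on dim probe sets 54 were higher and 47 lower. For 90 of the 102 the annotation gave 1 gene symbol, and these stood for 88 genes, 40 higher and 48 lower. In all 102 the Burn-CLP and Sham-Sham arrays did not overlap; over all probe sets tested this held for 21.5%, of which 11.1% were higher and 10.4% lower. An unadjusted p under 0.05 was found for 2684 probe sets, or 19.8%, where 676 would be expected with no change anywhere.

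The smallest called change was 0.84 on the log2 scale. Of the 102, 28 changed by at least 2 on that scale and 52 by less than 1.5. Signal was high for many of them, with a group mean above 1000 for 40 and all 9 arrays above the floor for 61. A whole group lay at the floor for 15, namely the Sham-Sham arrays for 6 rises and the Burn-CLP arrays for 9 falls. At the edge of the threshold RT1-CE5, an MHC class I gene, was the last called (adjusted p = 0.0497).

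**Figure D1:**
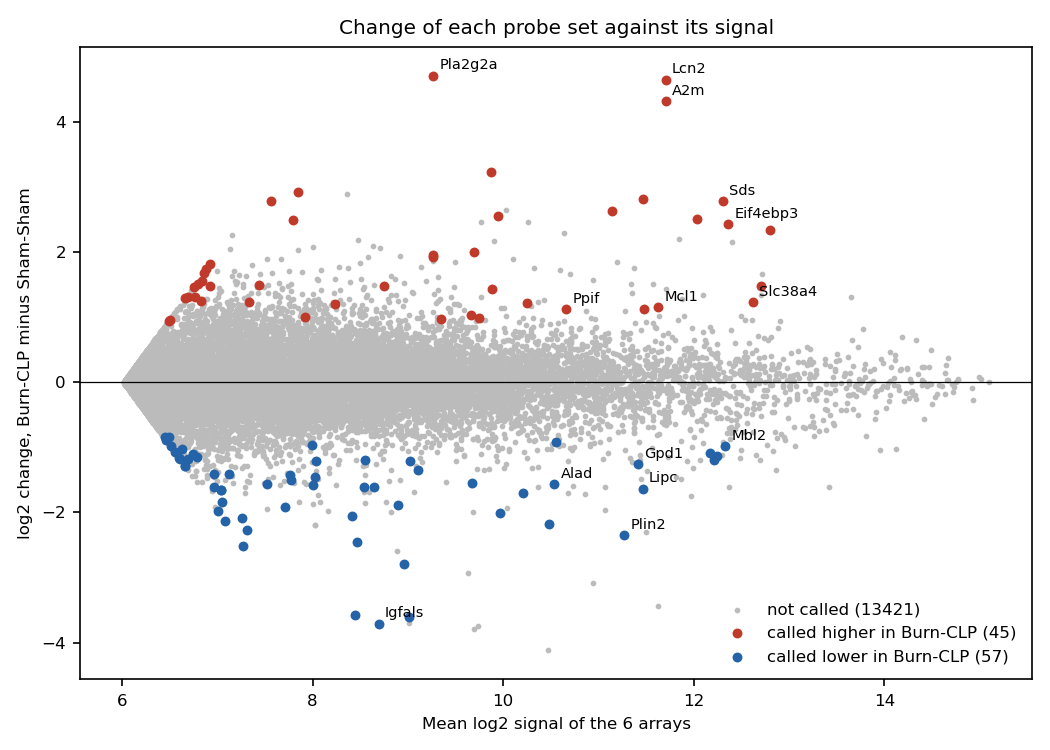
The change of each tested probe set (vertical axis, log2, Burn-CLP minus Sham-Sham) is plotted against its mean log2 signal on the 6 arrays (horizontal axis). Grey points did not pass, red points are the 45 called higher and blue points the 57 called lower. Called points run from dim to bright signal but do not reach the upper end of the range, and the straight edges at the left come from the floor.

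Single arrays decided how many probe sets were called. Leaving out Sham-Sham 1, 2 or 3 gave 29, 28 or 643 calls. Leaving out Sham-CLP 1, 2 or 3 gave 41, 37 or 75, and leaving out Burn-CLP 1, 2 or 3 gave 19, 19 or 229. The Sham-CLP arrays enter through the normalization, the floor, the filter and the shared spread, and in a fit of the Burn-CLP and Sham-Sham arrays alone 13 were called. Sham-Sham 1 was the least similar array: its correlations with the other 8 averaged 0.89, where those arrays reached averages of 0.922 to 0.949. Sham-Sham 3 correlated better with the Sham-CLP arrays (mean 0.959) than with the other Sham-Sham arrays (0.923). So did Sham-Sham 2 (0.943 and 0.936), and Sham-Sham 1 enters both means within the group. Of the 90 named calls, 23, 22 and 87 held when Sham-Sham 1, 2 or 3 was left out, 35, 31 and 58 for Sham-CLP 1, 2 or 3, and 17, 16 and 72 for Burn-CLP 1, 2 or 3.

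The calls that held without each of the 9 arrays in turn belonged to 12 genes: Lcn2, Pla2g2a, A2m, Lrrc51, Got1, Mid1, Rnf213, Smpdl3b, Inhbe, Pcolce, Sult2b1 and Slc16a10. The other 78 named calls were lost at least once, with an adjusted p of up to 0.167. None of the 90 changed direction in any alternative that tested it. This is no test of direction, because groups without overlap keep their direction when an array is left out. Beside the genes below, the number of these 9 fits in which the call held is given with the highest adjusted p.

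**Figure D2:**
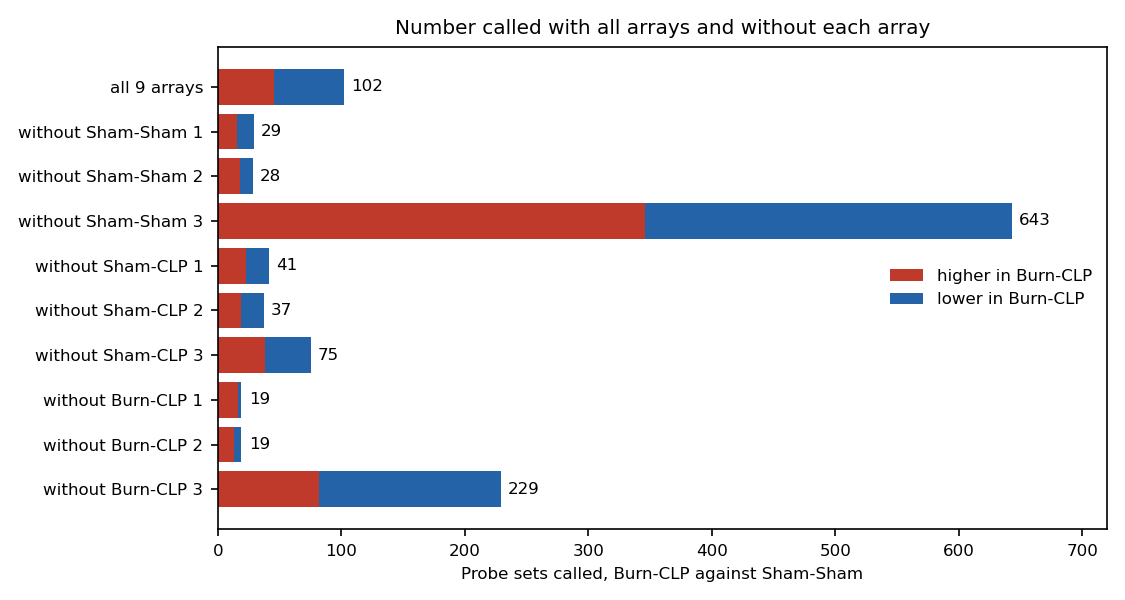
Bars give the number of probe sets called in Burn-CLP against Sham-Sham (horizontal axis) with all 9 arrays and without each array in turn (rows), split into higher (red) and lower (blue). The number ran from 19 without Burn-CLP 1 or Burn-CLP 2 to 643 without Sham-Sham 3.

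Acute phase genes held the strongest rises of the comparison. The iron-siderophore binding protein gene Lcn2 read 618, 637 and 752 in Sham-Sham, and 14040, 17450 and 19270 in Burn-CLP. Lcn2 rose 25.2-fold (4.65 ± 0.24, adjusted p = 6.65e-05). Pla2g2a, which encodes a secreted phospholipase A2 active against bacterial membranes, read 142, 72.8 and 168 in Sham-Sham, and 2355, 3353 and 3974 in Burn-CLP. Pla2g2a rose 26.2-fold (4.71 ± 0.31, adjusted p = 0.000384). For A2m, a broad protease inhibitor and major acute phase protein in rats, the signals were 629, 1222 and 544 in Sham-Sham, and 13180, 16970 and 14800 in Burn-CLP. A2m rose 19.9-fold (4.32 ± 0.33, adjusted p = 0.000903). In all 3 genes the groups were far apart and Burn-CLP 1 was the lowest array of its group.

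The 250 bases upstream of the annotated start are shown for those of the 3 genes that had an entry in the RefSeq promoter table of build GRCr8, because their transcripts changed most. Capitals mark matches to TTNNGNAA, a C/EBP pattern, and to an NF-kB pattern of GGGA, any 4 bases and CC, on either strand. TTCNNNGAA, a STAT pattern, was searched too. The Lcn2 window lies on the minus strand at chr3:36081781-36082030 and the Pla2g2a window on the plus strand at chr5:156359475-156359724.
Lcn2: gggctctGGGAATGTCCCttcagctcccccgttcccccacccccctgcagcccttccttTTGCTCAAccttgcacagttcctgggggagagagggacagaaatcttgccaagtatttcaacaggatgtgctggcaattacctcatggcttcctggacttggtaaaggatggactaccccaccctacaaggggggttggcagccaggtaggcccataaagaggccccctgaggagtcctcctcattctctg
Pla2g2a: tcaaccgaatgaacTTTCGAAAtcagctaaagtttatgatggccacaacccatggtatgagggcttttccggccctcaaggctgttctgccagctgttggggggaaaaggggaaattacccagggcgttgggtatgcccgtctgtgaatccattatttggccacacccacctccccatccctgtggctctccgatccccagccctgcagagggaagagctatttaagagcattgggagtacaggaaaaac
In the Lcn2 window the NF-kB pattern matched on both strands in overlapping positions, at bases -243 to -234 and -242 to -233 from the start, and the C/EBP pattern at bases -191 to -184. In the Pla2g2a window the C/EBP pattern matched at bases -236 to -229. Neither window held the STAT pattern. Of all 27457 windows of this length, 36.9% held the C/EBP pattern, 16.7% the NF-kB pattern and 7.6% the STAT pattern; for the 7772 tested genes with an entry the shares were 28%, 21.9% and 6%. Among the called genes with an entry, the C/EBP pattern stood in 14 of 32 that were higher and 17 of 42 that were lower, the NF-kB pattern in 7 and 14, and the STAT pattern in 2 and 3. These are matches of letters, which say nothing of binding.

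Further called members of the acute phase list were Lbp, Spink1 and Mbl2. Lbp, the carrier that hands lipopolysaccharide to immune receptors, read 3183, 4110 and 4869 in Sham-Sham, and 8863, 13120 and 11810 in Burn-CLP. Lbp rose 2.78-fold (1.48 ± 0.22, adjusted p = 0.0246). Spink1, a secreted trypsin inhibitor gene, read 460.5, 211 and 297 in Sham-Sham, and 1159, 5968 and 3457 in Burn-CLP at its most strongly changed probe set, and rose 9.39-fold (3.23 ± 0.53, adjusted p = 0.035). A second Spink1 probe set rose 2.32-fold (1.21 ± 0.20, adjusted p = 0.0355), and another differed by 2.47 without passing (adjusted p = 0.06). Mbl2, a mannose-binding lectin that starts complement on microbial sugars, went the other way: it read 7252, 7315 and 7104 in Sham-Sham, and 4175, 3256 and 3619 in Burn-CLP. Mbl2 fell 1.97-fold (-0.98 ± 0.18, adjusted p = 0.0448). The other Mbl2 probe set gave -0.81 (adjusted p = 0.234). The Spink1 spread was wide, with Burn-CLP 1 well below the other Burn-CLP arrays, while Mbl2 was tight in both groups. Without 1 array in turn the call held in 4 of 9 (adjusted p up to 0.107) for Lbp, 3 of 9 (adjusted p up to 0.107) for the first Spink1 probe set and 1 of 9 (adjusted p up to 0.164) for Mbl2.

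Over the list, 42 acute phase genes were tested with the brightest probe set of each gene. Of these, 5 were called higher and 1 lower, where 0.428% and 0.418% of all 9335 genes were. In 12 of 42 all Burn-CLP arrays lay above all Sham-Sham arrays and in 3 below, against 11.3% and 11% of all genes. These shares are the background for the same counts in every list below. The median change was 0.23, beside 0.0042 over all genes, and over the alternatives it ran from 0.14 without Burn-CLP 2 to 0.39 without Burn-CLP 1. Bulk tissue cannot tell more RNA per hepatocyte from a change in the number of cells. Among members that did not pass, Timp1, a metalloprotease inhibitor gene, differed by 2.06 ± 0.48 (adjusted p = 0.0762), the orosomucoid gene Orm1 by 0.65 ± 0.15 (adjusted p = 0.0762) and the interleukin 1 receptor gene Il1r1 by 1.15 ± 0.33 (adjusted p = 0.121); they were named after their values were seen.

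Of 23 genes of plasma proteins known to drop in inflammation, 1 was called, lower. In this list 13 had all Burn-CLP arrays below all Sham-Sham arrays and 1 had them above, against 11% and 11.3% of all genes, and the median change was -0.34 (-0.34 without Sham-Sham 1 and -0.33 without Sham-Sham 3; over the alternatives from -0.55 without Burn-CLP 3 to -0.25 without Burn-CLP 2). Igfals, which encodes the subunit that holds insulin-like growth factors in the circulation, was the called member: it read 1084, 1813 and 1702 in Sham-Sham, and 357 on 1 and the floor on 2 Burn-CLP arrays. Igfals fell 13.1-fold (-3.71 ± 0.62, adjusted p = 0.0355). Burn-CLP 3 was the array above the floor. The call held in 3 of 9 (adjusted p up to 0.135) fits without 1 array. Members that did not pass, named after their values were seen, were the corticosteroid-binding globulin gene Serpina6 at -3.09 ± 0.63 (adjusted p = 0.0591), the vitamin E carrier gene Afm at -0.97 ± 0.25 (adjusted p = 0.0914), Igf1 at -0.71 ± 0.20 (adjusted p = 0.114) and transthyretin, Ttr, at -0.34 ± 0.15 (adjusted p = 0.253).

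Genes that sense bacterial products or carry the cytokine signal held few calls. Of 30 genes of lipopolysaccharide sensing and NF-kB feedback, Lbp alone was called, and the median was 0.10. In that list 2 genes lay above all Sham-Sham arrays (6.67%) and 4 below (13.3%), against 11.3% and 11% of all genes. Of 21 genes of interleukin 6, interleukin 1 and C/EBP signalling 1 was called, and the median was 0.45. That gene was Mcl1, a BCL2 family member that protects cells from apoptosis: it read 1953, 2352 and 2074 in Sham-Sham, and 4413, 6203 and 3820 in Burn-CLP. Mcl1 rose 2.22-fold (1.15 ± 0.20, adjusted p = 0.0414). Its dimmer probe set differed by 0.66 (adjusted p = 0.236). Over the alternatives the median of the interleukin and C/EBP list ran from 0.30 without Burn-CLP 2 to 0.52 without Sham-Sham 3. In it 3 genes lay above (14.3%) and 1 below (4.76%) all Sham-Sham arrays, against 11.3% and 11% of all genes. Of 47 immediate early and stress regulators Jund, which encodes an AP-1 subunit, was called: it read the floor on all 3 Sham-Sham arrays, and 119, 266 and 182 in Burn-CLP. Jund rose at least 2.76-fold (1.47 ± 0.26, adjusted p = 0.0427), while the other Jund probe set gave 0.25 (adjusted p = 0.442). That list had a median of 0.27, with 5 genes above and 0 below all Sham-Sham arrays. The calls of Mcl1 and Jund held in 2 of 9 (adjusted p up to 0.118) and 2 of 9 (adjusted p up to 0.111) fits without 1 array.

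Enzymes and carriers that bring amino acids into the hepatocyte and break them down rose in several places. Got1, cytosolic aspartate aminotransferase, read 2965, 3690 and 2933 in Sham-Sham, and 16420, 17590 and 14320 in Burn-CLP. Got1 rose 5.05-fold (2.34 ± 0.21, adjusted p = 0.00242). Sds, the serine dehydratase that makes pyruvate from serine, read 2538, 3475 and 819 in Sham-Sham, and 12580, 17850 and 10500 in Burn-CLP. Sds rose 6.88-fold (2.78 ± 0.47, adjusted p = 0.0363). Acmsd, which diverts tryptophan breakdown from NAD synthesis towards oxidation, read 359, 481 and 387 in Sham-Sham, and 2324, 3854 and 1534 in Burn-CLP. Acmsd rose 5.90-fold (2.56 ± 0.31, adjusted p = 0.0116). Within Burn-CLP, array 2 was the highest for all 3 of these genes, and Sham-Sham 3 was the lowest array for Sds. The call held without each array for Got1, in 8 of 9 (adjusted p up to 0.0555) fits for Acmsd and in 3 of 9 (adjusted p up to 0.147) for Sds.

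Among amino acid transporters, Slc16a10, the aromatic amino acid carrier of the cell membrane, read 78.4 and 114 on 2 and the floor on 1 of the Sham-Sham arrays, and 418, 1066 and 564 in Burn-CLP. Slc16a10 rose 7.57-fold (2.92 ± 0.34, adjusted p = 0.0083). Slc38a4, a sodium-coupled carrier of neutral amino acids strongly expressed in liver, read 3690, 4772 and 3944 in Sham-Sham, and 9545, 10230 and 9139 in Burn-CLP. Slc38a4 rose 2.34-fold (1.23 ± 0.17, adjusted p = 0.0206); this was the tightest of the 3, with the Burn-CLP arrays close together. The glutamate transporter gene Slc1a2 read 195 on 1 and the floor on 2 Sham-Sham arrays, and 419, 665 and 519.6 in Burn-CLP. Slc1a2 rose 5.61-fold (2.49 ± 0.44, adjusted p = 0.0427), but the other Slc1a2 probe set gave -0.12 (adjusted p = 0.796). Those 3 were called of 22 transporters tested, and the median was 0.23. Of the 22, 6 lay above (27.3%) and 3 below (13.6%) all Sham-Sham arrays, against 11.3% and 11% of all genes. The Slc38a4 call held in 6 of 9 (adjusted p up to 0.0849) fits and that of Slc1a2 in 2 of 9 (adjusted p up to 0.166).

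The whole list of amino acid breakdown held genes on either side. Of 58 genes 3 were called higher and 0 lower, and the median was 0.04, near that of all genes. Of the 58, 13 lay above (22.4%) and 9 below (15.5%) all Sham-Sham arrays, against 11.3% and 11% of all genes. Of 12 urea cycle genes, whose products dispose of the nitrogen, 6 lay above all Sham-Sham arrays and 0 below, with a median of 0.35, which over the alternatives ran from 0.27 without Burn-CLP 2 to 0.39 with deposited scaling. No urea cycle gene (0 of 12) passed. The smallest p-values there belonged to the argininosuccinate lyase gene Asl, which read 3497, 4853 and 5329 in Sham-Sham, and 9873, 10780 and 6254 in Burn-CLP, with a difference of 0.96 ± 0.25 (adjusted p = 0.098), and to the mitochondrial ornithine carrier gene Slc25a15, at 0.96 ± 0.29 (adjusted p = 0.133). Of 19 genes of tryptophan, kynurenine and NAD metabolism Acmsd alone was called, and 4 lay above and 4 below.

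Genes known to respond to glucocorticoids formed a list that shares members with other lists. Of 30 tested, Got1, Lpin1 and Sds were called, 17 lay above all Sham-Sham arrays and 2 below, and the median was 0.50 (0.49 without Sham-Sham 1 and 0.47 without Sham-Sham 3; over the alternatives from 0.40 with array weights to 0.70 without Sham-Sham 2). Lpin1, a phosphatidate phosphatase and coactivator of fatty acid oxidation genes, read 949.6, 865 and 905 in Sham-Sham, and 6157, 8503 and 3394 in Burn-CLP. Lpin1 rose 6.21-fold (2.63 ± 0.37, adjusted p = 0.0217), and its call held in 5 of 9 (adjusted p up to 0.0849) fits. The tyrosine aminotransferase gene Tat, a classical target, read 3470, 5198 and 2975 in Sham-Sham, and 11850, 14090 and 10160 in Burn-CLP; it differed by 1.66 ± 0.52 (adjusted p = 0.144) without overlap. Named after their values were seen, Fkbp5, a chaperone of the glucocorticoid receptor, differed by 0.96 ± 0.28 (adjusted p = 0.132), the clock gene Per1 by 1.77 ± 0.53 (adjusted p = 0.132) and the mitophagy gene Bnip3 by 1.51 ± 0.29 (adjusted p = 0.0531). Angptl4, which inhibits lipoprotein lipase and belongs to the list too, was lower, at -1.33 ± 0.30 (adjusted p = 0.0714).

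**Figure D3:**
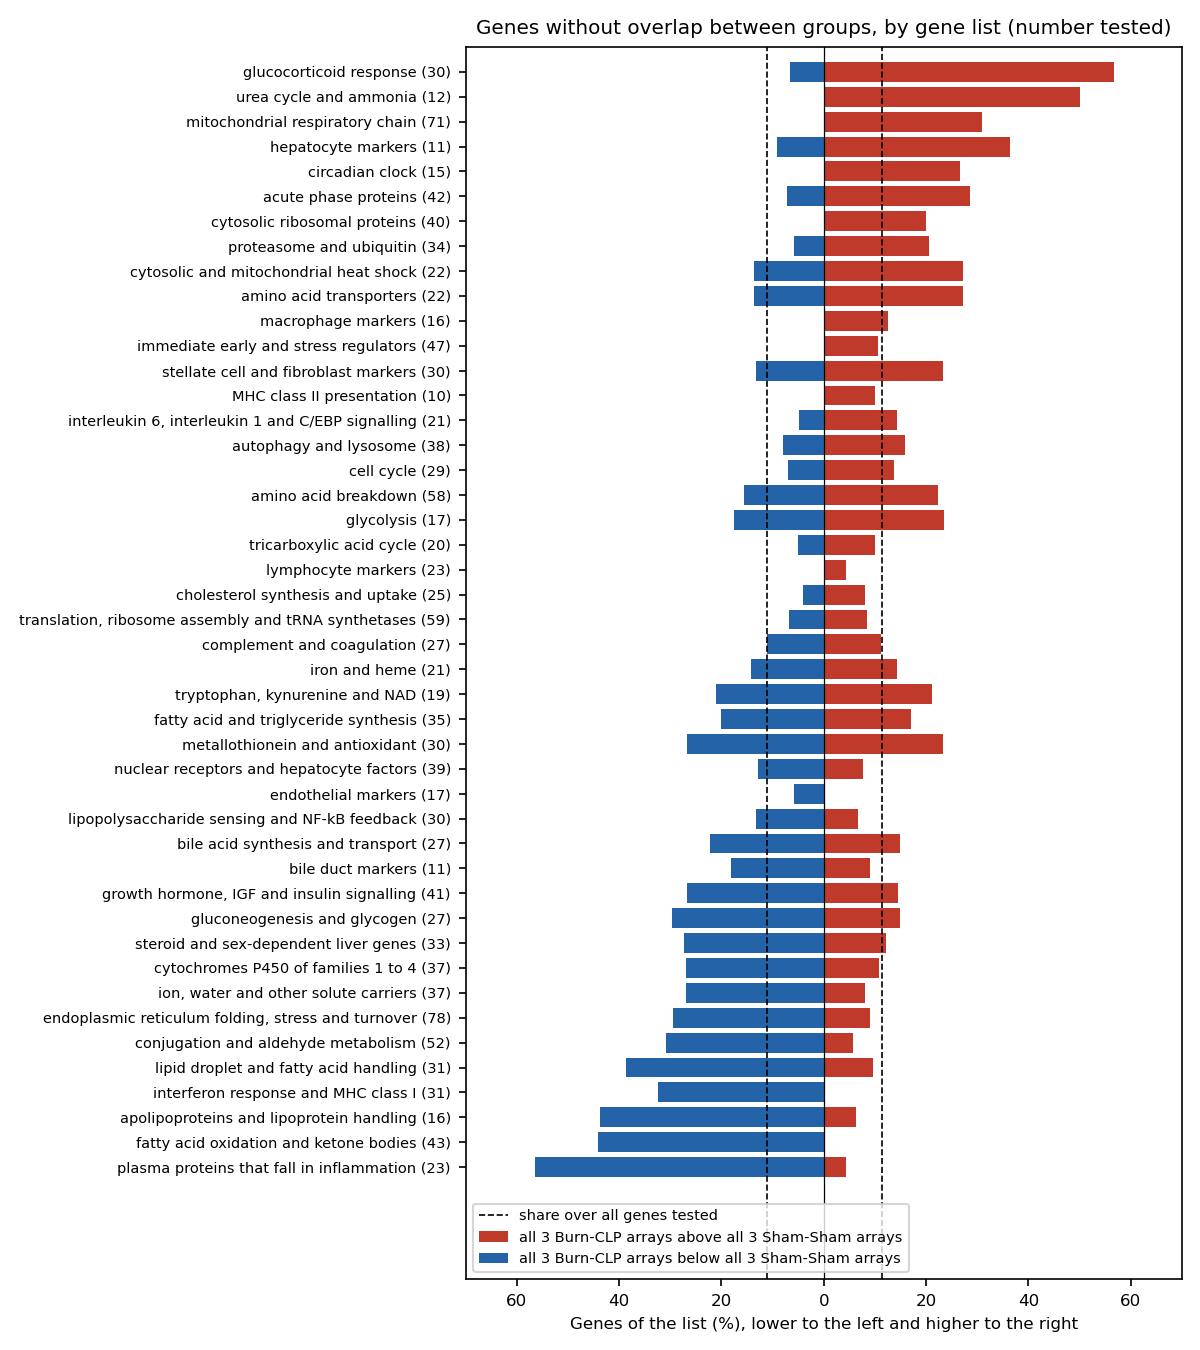
For each gene list with at least 10 genes tested (rows, number tested in brackets), bars give the percentage of genes whose 3 Burn-CLP arrays all lay above (red, to the right) or below (blue, to the left) the 3 Sham-Sham arrays. Dashed lines mark the shares over all genes, 11.3% and 11%; the glucocorticoid response list reached 56.7% to the right and the list of plasma proteins that fall in inflammation 56.5% to the left.

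Genes of sugar and energy metabolism included called rises and falls. The glycolytic enzyme gene Aldoa, the muscle-type aldolase, read 1955, 1931 and 1886 in Sham-Sham, and 4547, 5256 and 3124 in Burn-CLP. Aldoa rose 2.19-fold (1.13 ± 0.20, adjusted p = 0.0428). It was the called member of 17 glycolysis genes, whose median was -0.06. Of these, 4 lay above (23.5%) and 3 below (17.6%) all Sham-Sham arrays, against 11.3% and 11% of all genes. Gpd1, which makes glycerol 3-phosphate and links glycolysis to triglyceride synthesis, read 4332, 5024 and 3433 in Sham-Sham, and 1930, 1314 and 2166 in Burn-CLP. Gpd1 fell 2.39-fold (-1.26 ± 0.22, adjusted p = 0.0428); its dimmer probe set differed by -0.87 (adjusted p = 0.179). Ldhd, a mitochondrial dehydrogenase of D-lactate, read 368, 186 and 231 in Sham-Sham, and 81.0 on 1 and the floor on 2 Burn-CLP arrays. Ldhd fell 3.60-fold (-1.85 ± 0.26, adjusted p = 0.0236), with its brighter probe set at -1.05 (adjusted p = 0.0661). The forkhead gene Foxo4 read 428, 289 and 255 in Sham-Sham, and 97.2 on 1 and the floor on 2 Burn-CLP arrays. Foxo4 fell 4.26-fold (-2.09 ± 0.26, adjusted p = 0.0121); it was the called member of 27 gluconeogenesis and glycogen genes, of which 4 lay above and 8 below, with a median of -0.06. Calls held in 2 of 9 (adjusted p up to 0.142) fits for Aldoa, 2 of 9 (adjusted p up to 0.133) for Gpd1, 7 of 9 (adjusted p up to 0.107) for Ldhd and 8 of 9 (adjusted p up to 0.0701) for Foxo4.

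Genes of mitochondrial proteins were called in both directions: Ldhd, above, fell and Acsm3, below, rose. A further 3 called rises are given here. Sdhaf1, an assembly factor of respiratory complex II, read 532, 532 and 631 in Sham-Sham, and 1054, 1135 and 1303 in Burn-CLP. Sdhaf1 rose 2.06-fold (1.04 ± 0.16, adjusted p = 0.0323). Ppif, the cyclophilin that regulates the mitochondrial permeability pore, read 1060, 1128 and 1096 in Sham-Sham, and 2508, 2789 and 1960 in Burn-CLP. Ppif rose 2.19-fold (1.13 ± 0.17, adjusted p = 0.0312). Clybl, a mitochondrial enzyme gene of citramalyl-CoA breakdown, read 90.4 and 65.8 on 2 and the floor on 1 of the Sham-Sham arrays, and 187, 218 and 204 in Burn-CLP. Clybl rose 2.79-fold (1.48 ± 0.23, adjusted p = 0.0323). In all 3 genes the Burn-CLP arrays lay clear of the Sham-Sham arrays, though Clybl was dim. None of these 3 was in a list; the 71 respiratory chain and ATP synthase genes held no call (0), with 22 above and 0 below all Sham-Sham arrays and a median of 0.18, which over the alternatives ran from 0.14 without Sham-Sham 2 to 0.22 without Sham-Sham 1. The complex I gene Ndufs3 had the smallest p there, at 0.58 ± 0.15 (adjusted p = 0.0895), followed by the complex III gene Uqcrh at 0.53 ± 0.16 (adjusted p = 0.138). Of 20 tricarboxylic acid cycle genes 0 passed and the median was 0.03; the malate dehydrogenase gene Mdh1 differed by 0.83 ± 0.18 (adjusted p = 0.0625), with 5881, 5825 and 5346 in Sham-Sham, and 9330, 11530 and 9650 in Burn-CLP, and Pdhb, a pyruvate dehydrogenase subunit gene, by 0.60 ± 0.16 (adjusted p = 0.0953). The calls held in 3 of 9 (adjusted p up to 0.107) fits for Sdhaf1, 3 of 9 (adjusted p up to 0.107) for Ppif and 4 of 9 (adjusted p up to 0.126) for Clybl.

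The called genes of lipid storage and transport were lower. Plin2, the coat protein of hepatic lipid droplets, read 4973, 6819 and 5078 in Sham-Sham, and 1458, 565 and 1590 in Burn-CLP. Plin2 fell 5.09-fold (-2.35 ± 0.37, adjusted p = 0.0337), with -0.70 at its dimmer probe set (adjusted p = 0.324). Lipc, hepatic lipase, which acts on circulating lipoproteins, read 4860, 4930 and 5138 in Sham-Sham, and 1546, 1363 and 1962 in Burn-CLP. Lipc fell 3.10-fold (-1.63 ± 0.27, adjusted p = 0.035). Fabp3, a fatty acid binding protein best known from heart, read 381, 319 and 186 in Sham-Sham, and the floor on all 3 Burn-CLP arrays. Fabp3 fell at least 4.37-fold (-2.13 ± 0.38, adjusted p = 0.0446). The monoglyceride lipase gene Mgll read 473, 261 and 411 in Sham-Sham, and the floor on all 3 Burn-CLP arrays. Mgll fell at least 5.71-fold (-2.51 ± 0.37, adjusted p = 0.0246), while -1.97, -0.29 and -0.03 at the other Mgll probe sets did not pass. Plin2 and Lipc were bright, and for both of them Burn-CLP 2 was the lowest array. Calls held in 4 of 9 (adjusted p up to 0.091) fits for Plin2, 4 of 9 (adjusted p up to 0.134) for Lipc, 2 of 9 (adjusted p up to 0.159) for Fabp3 and 6 of 9 (adjusted p up to 0.107) for Mgll.

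Of 31 lipid droplet and fatty acid handling genes, 3 were called lower at their brightest probe set, 12 lay below and 3 above all Sham-Sham arrays, and the median was -0.32, from -0.44 without Burn-CLP 3 to -0.23 with no filter. Fatty acid oxidation and ketone body genes had 0 calls: of 43 tested, 19 were below and 0 above all Sham-Sham arrays, and the median was -0.43 (-0.50 without Sham-Sham 1 and -0.44 without Sham-Sham 3; over the alternatives from -0.61 without Burn-CLP 1 to -0.31 without Burn-CLP 2). The smallest p-values were those of the carnitine acetyltransferase gene Crat, at -0.83 ± 0.18 (adjusted p = 0.0679), and of the medium-chain acyl-CoA dehydrogenase gene Acadm, at -1.06 ± 0.24 (adjusted p = 0.0707), whose signals were 10230, 10850 and 10460 in Sham-Sham, and 7009, 3601 and 5086 in Burn-CLP. Lpin1 was the called member of 35 fatty acid and triglyceride synthesis genes, with a median of -0.13. Of these, 6 lay above (17.1%) and 7 below (20%), against 11.3% and 11% of all genes. Of 16 apolipoprotein and lipoprotein genes 7 lay below and 1 above, and Lipc was called. Cholesterol synthesis and uptake genes had a median of 0.35 over 25 genes with 0 calls, and ran from -0.07 without Sham-Sham 2 to 0.64 without Sham-Sham 3; Insig1, which holds back sterol-regulated transcription, differed by 1.34 ± 0.31 (adjusted p = 0.0728) and the sterol isomerase gene Ebp by 0.84 ± 0.21 (adjusted p = 0.0914).

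Acsm3, a mitochondrial medium-chain acyl-CoA synthetase gene outside these lists, read 437, 367 and 189.9 in Sham-Sham, and 1064, 1696 and 996 in Burn-CLP. Acsm3 rose 3.89-fold (1.96 ± 0.34, adjusted p = 0.0407). Abhd16a, a lipase that acts on phosphatidylserine, read 434, 371 and 392 in Sham-Sham, and 166, 188 and 164 in Burn-CLP. Abhd16a fell 2.31-fold (-1.21 ± 0.17, adjusted p = 0.0215). Smpdl3b, a membrane-bound phosphodiesterase gene of the sphingomyelinase family, read 66.7 on 1 and the floor on 2 Sham-Sham arrays, and 167, 159.9 and 159.6 in Burn-CLP. Smpdl3b rose 2.48-fold (1.31 ± 0.14, adjusted p = 0.00745). Lrpap1, the chaperone of low density lipoprotein receptor family members, read 488, 489 and 335 in Sham-Sham, and 155, 149 and 168 in Burn-CLP. Lrpap1 fell 2.74-fold (-1.45 ± 0.19, adjusted p = 0.0171), while its brighter probe set differed by -0.28 (adjusted p = 0.422). The Smpdl3b call held without each array, those of Abhd16a and Lrpap1 in 5 of 9 (adjusted p up to 0.0758) and 6 of 9 (adjusted p up to 0.0808) fits, and that of Acsm3 in 2 of 9 (adjusted p up to 0.147).

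Several hepatocyte enzymes of drug, aldehyde and steroid metabolism were lower. Akr7a3, an aldehyde reductase that acts on aflatoxin dialdehyde, read 1585, 1769 and 2897 in Sham-Sham, and 780.2, 289 and 558 in Burn-CLP. Akr7a3 fell 4.01-fold (-2.0 ± 0.35, adjusted p = 0.0416). Gstm2, a mu-class glutathione transferase gene, read 7457, 6621 and 7492 in Sham-Sham, and 3544, 2284 and 3876 in Burn-CLP. Gstm2 fell 2.28-fold (-1.19 ± 0.22, adjusted p = 0.0472). Gstm2 was bright and tight among the Sham-Sham arrays, and Burn-CLP 2 was the lowest array for both genes. The P450 gene Cyp2t1 read 717, 600.2 and 802 in Sham-Sham, and 255, 164 and 289 in Burn-CLP. Cyp2t1 fell 3.06-fold (-1.61 ± 0.26, adjusted p = 0.035). Hsd17b2, which inactivates estradiol and testosterone, read 1271, 1603 and 2875 in Sham-Sham, and 185 and 270.5 on 2 and the floor on 1 of the Burn-CLP arrays. Hsd17b2 fell 12.2-fold (-3.61 ± 0.58, adjusted p = 0.035). Alad, the second enzyme of heme synthesis, read 2525, 2246 and 2921 in Sham-Sham, and 997, 594 and 1090 in Burn-CLP. Alad fell 2.95-fold (-1.56 ± 0.26, adjusted p = 0.0361). The calls held in 1 of 9 (adjusted p up to 0.107) fits for Akr7a3, 2 of 9 (adjusted p up to 0.127) for Gstm2, 3 of 9 (adjusted p up to 0.107) for Cyp2t1, 3 of 9 (adjusted p up to 0.107) for Hsd17b2 and 3 of 9 (adjusted p up to 0.107) for Alad.

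Of 52 conjugation and aldehyde metabolism genes 2 were called lower, 16 lay below and 3 above all Sham-Sham arrays, and the median was -0.49, from -0.52 without Burn-CLP 3 to -0.27 without Burn-CLP 2. Of 37 P450 genes 10 lay below (27%) and 4 above (10.8%), against 11% and 11.3% of all genes. Cyp2t1 was called, and the median of the P450 list was -0.15. The steroid and sex-dependent list had 1 call, Hsd17b2, among 33 genes, with 9 below and 4 above. The carbonic anhydrase gene Car3, which is known as male-biased in rat liver and belongs to the same list, read 1530, 1536 and 955 in Sham-Sham, and 126, 152 and 351 in Burn-CLP at its dimmer probe set, and fell 6.93-fold (-2.79 ± 0.39, adjusted p = 0.0217); the brighter Car3 probe set gave -4.12 and did not pass (adjusted p = 0.0532), so Car3 does not count among the calls at the brightest probe set. The Car3 call held in 5 of 9 (adjusted p up to 0.105) fits. Of 21 iron and heme genes Lcn2 rose and Alad fell. Sult2b1, a sulfotransferase gene for cholesterol and other sterols, was dim and rose: it read 71.5 on 1 and the floor on 2 Sham-Sham arrays, and 174, 178 and 247 in Burn-CLP. Sult2b1 rose 2.94-fold (1.56 ± 0.18, adjusted p = 0.00806), a call that held without each array.

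Genes of growth hormone, IGF and insulin signalling, 41 of them tested, held 3 called falls and 1 called rise. Inhbe, the inhibin beta E subunit gene of the TGF-beta family, made mainly in liver, read 1062, 997 and 532 in Sham-Sham, and 150.3, 129.7 and 179 in Burn-CLP. Inhbe fell 5.45-fold (-2.45 ± 0.27, adjusted p = 0.00745), a call that held without each array. Sesn1, a stress-induced inhibitor of mTORC1 signalling, read 265, 244 and 489 in Sham-Sham, and 1263, 1667 and 811 in Burn-CLP. Sesn1 rose 3.78-fold (1.92 ± 0.32, adjusted p = 0.0355), which held in 2 of 9 (adjusted p up to 0.13) fits. Igfals and Foxo4 were the other called falls. Over the list 6 genes lay above (14.6%) and 11 below (26.8%) all Sham-Sham arrays, against 11.3% and 11% of all genes. The median was -0.18. Outside it, Eif4ebp3, which encodes a repressor of cap-dependent translation of the 4E-BP family, read 2089, 2319 and 2425 in Sham-Sham, and 13960, 11920 and 10960 in Burn-CLP. Eif4ebp3 rose 5.37-fold (2.43 ± 0.32, adjusted p = 0.019). Pik3r2, a regulatory subunit gene of phosphoinositide 3-kinase, fell 2.70-fold (-1.43 ± 0.26, adjusted p = 0.0441), with its brighter probe set at -0.04 (adjusted p = 0.921). The Eif4ebp3 call held in 5 of 9 (adjusted p up to 0.0849) fits and that of Pik3r2 in 2 of 9 (adjusted p up to 0.12).

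In the endoplasmic reticulum, the protein disposal genes Edem1 and Retreg1 rose. Edem1, which draws misfolded glycoproteins towards degradation, read 2812, 1875 and 1026 in Sham-Sham, and 10500, 13690 and 6936 in Burn-CLP. Edem1 rose 5.69-fold (2.51 ± 0.39, adjusted p = 0.0323). Retreg1, the receptor for autophagy of the reticulum, read 1031, 1844 and 639 in Sham-Sham, and 7061, 12420 and 4910 in Burn-CLP. Retreg1 rose 7.08-fold (2.82 ± 0.51, adjusted p = 0.0453); its dimmer probe set differed by 1.95 (adjusted p = 0.0688). Both had Burn-CLP 2 as the highest array and Burn-CLP 3 as the lowest of the group. Of 78 genes of the list, 2 were called higher and 0 lower, and the median was -0.14. Of the 78, 23 lay below (29.5%) and 7 above (8.97%) all Sham-Sham arrays, against 11% and 11.3% of all genes. Members without a call, named after their values were seen, were the disulfide isomerase gene Pdia4, which read 2177, 2827 and 2886 in Sham-Sham, and 1411, 1341 and 1620 in Burn-CLP, a difference of -0.84 ± 0.21 (adjusted p = 0.0835), the stress-induced gene Creld2 at -0.96 ± 0.23 (adjusted p = 0.0767) and the translocon subunit gene Sec61b at -1.04 ± 0.27 (adjusted p = 0.0953). The calls of Edem1 and Retreg1 held in 4 of 9 (adjusted p up to 0.127) and 3 of 9 (adjusted p up to 0.167) fits.

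Cytosolic ribosomal protein genes, 40 tested, had a median of 0.13, with 8 above and 0 below all Sham-Sham arrays and 0 calls; Rpl27 differed by 0.45 ± 0.15 (adjusted p = 0.156) and Rpl12 by 0.45 ± 0.16 (adjusted p = 0.178). The 34 proteasome and ubiquitin genes had a median of 0.15 and 0 calls, 7 above and 2 below. The smallest p in that list belonged to the proteasome activator gene Psme1, which was lower at -1.04 ± 0.23 (adjusted p = 0.0679). The core subunit gene Psma3 followed at 0.53 ± 0.18 (adjusted p = 0.16). For 59 genes of translation, ribosome assembly and tRNA synthetases the median was 0.15, again with 0 calls, and the ribosome biogenesis genes Wdr12 and Fbl differed by 1.22 ± 0.41 (adjusted p = 0.16) and 0.53 ± 0.18 (adjusted p = 0.161). Heat shock genes had 0 calls of 22, with the cochaperone gene Chordc1 at 0.84 ± 0.23 (adjusted p = 0.106) and the chaperone gene Hspa4 at -0.71 ± 0.22 (adjusted p = 0.139). Their median was 0.235, and over the alternatives it ran from 0.14 without Burn-CLP 1 to 0.32 without Burn-CLP 3. Of the 22, 6 lay above (27.3%) and 3 below (13.6%) all Sham-Sham arrays, against 11.3% and 11% of all genes. Atg2b, which moves lipid to growing autophagosomes, read 187, 144 and 140.1 in Sham-Sham, and 69.6 and 71.0 on 2 and the floor on 1 of the Burn-CLP arrays. Atg2b fell 2.27-fold (-1.19 ± 0.17, adjusted p = 0.0223), but its brighter probe set differed by -0.48 (adjusted p = 0.21), so that list has 0 calls of 38 at the brightest probe set. The Atg2b call held in 6 of 9 (adjusted p up to 0.104) fits.

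Of 31 interferon response and MHC class I genes tested, 10 were below and 0 above all Sham-Sham arrays (11% and 11.3% over all genes), and the median was -0.40 (-0.30 without Sham-Sham 1 and -0.46 without Sham-Sham 3; over the alternatives from -0.46 without Burn-CLP 3 to -0.26 with array weights). Rnf213, an interferon-induced ubiquitin ligase, read 286, 323 and 459 in Sham-Sham, and 91.4 on 1 and the floor on 2 Burn-CLP arrays. Rnf213 fell 4.80-fold (-2.26 ± 0.23, adjusted p = 0.0043), a call that held without each array, but its brighter probe set differed by -0.13 (adjusted p = 0.8). RT1-CE5, an MHC class I gene, read 196, 192 and 104 in Sham-Sham, and the floor on all 3 Burn-CLP arrays. RT1-CE5 fell at least 2.43-fold (-1.28 ± 0.24, adjusted p = 0.0497), with its brighter probe set at -0.30 (adjusted p = 0.551). Neither counts at the brightest probe set, where the list has 0 calls. Dtx3l, a ubiquitin ligase of the interferon response that was in no list, read 699.6, 444 and 584 in Sham-Sham, and 211, 238 and 302 in Burn-CLP. Dtx3l fell 2.29-fold (-1.19 ± 0.21, adjusted p = 0.0427). The proteasome activator gene Psme1 differed by -1.04 ± 0.23 (adjusted p = 0.0679), with 3299, 3253 and 4175 in Sham-Sham, and 1758, 1299 and 2254 in Burn-CLP, and the immunoproteasome gene Psmb8, named after its value was seen, by -1.03 ± 0.28 (adjusted p = 0.11). The RT1-CE5 and Dtx3l calls held in 1 of 9 (adjusted p up to 0.166) and 2 of 9 (adjusted p up to 0.151) fits. MHC class I genes are close relatives, and cross-hybridization between them was not tested.

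Markers of the cells that share the liver with hepatocytes were checked beside these results. The tissue showed hepatocyte markers at high signal, with 11 of 12 listed markers tested and a summed signal of 230600 to 243600 in Sham-Sham and 251200 to 263600 in Burn-CLP; albumin, Alb, read 33720, 35700 and 35700 in Sham-Sham and 35700, 35700 and 33720 in Burn-CLP, where 35700 is the highest value that the normalization assigns, so it has no usable difference on this scale; with the deposited scaling it differed by -0.16. The protease inhibitor gene Serpina1 differed by -0.03 ± 0.14 (adjusted p = 0.934), or 0.003 with the deposited scaling. Neutrophil markers included 2 called rises, Lcn2, which hepatocytes make too, and S100a9, a calcium-binding protein of neutrophils. S100a9 read 89.1 on 1 and the floor on 2 Sham-Sham arrays, and 238, 788 and 662 in Burn-CLP. S100a9 rose 6.92-fold (2.79 ± 0.40, adjusted p = 0.0239), with Burn-CLP 1 lowest of its group; the call held in 6 of 9 (adjusted p up to 0.104) fits. Of 23 neutrophil markers 9 were tested, and their summed signal was 1752 to 1992 in Sham-Sham and 15370 to 21130 in Burn-CLP, most of it Lcn2 in Burn-CLP. Of the 9, 3 lay above and 0 below all Sham-Sham arrays, and the median change was 0.56. Over the alternatives this median ran from 0.07 with all 9 arrays above the floor to 0.65 without Burn-CLP 1. The Fc receptor gene Fcgr3a differed by -0.17 ± 0.19 (adjusted p = 0.642).

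Matrix genes changed in both directions. Pcolce, which speeds procollagen processing, read 355, 383 and 519 in Sham-Sham, and 1384, 1570 and 2083 in Burn-CLP. Pcolce rose 4.0-fold (2.00 ± 0.22, adjusted p = 0.00745), a call that held without each array. Dcn, the collagen-binding proteoglycan decorin, read 285, 268 and 221 in Sham-Sham, and 581, 870.3 and 729 in Burn-CLP. Dcn rose 2.80-fold (1.48 ± 0.21, adjusted p = 0.0239). Dpt, dermatopontin, another matrix protein that binds decorin, fell at both called probe sets: the first read 7084, 6238 and 8413 in Sham-Sham, and 3094, 2854 and 3959 in Burn-CLP. Dpt fell 2.20-fold (-1.14 ± 0.20, adjusted p = 0.0394), and the second fell 2.12-fold (-1.09 ± 0.20, adjusted p = 0.0448). The Dcn and Dpt signals were thus apart in opposite directions. Of 32 stellate cell and fibroblast markers 30 were tested, 7 lay above and 4 below, and the sums were 27460 to 29550 in Sham-Sham and 28960 to 33340 in Burn-CLP; the brightest, Fn1 and Col3a1, differed by 0.28 ± 0.15 (adjusted p = 0.335) and -0.48 ± 0.22 (adjusted p = 0.262). Hand2, a transcription factor gene of stellate cells, read 139.6, 273 and 334 in Sham-Sham, and 72.8, 75.5 and 74.7 in Burn-CLP. Hand2 fell 3.14-fold (-1.65 ± 0.28, adjusted p = 0.0394), with 0.27 at its dimmer probe set (adjusted p = 0.673). The calls held in 7 of 9 (adjusted p up to 0.105) fits for Dcn, 2 of 9 (adjusted p up to 0.144) and 2 of 9 (adjusted p up to 0.166) for Dpt and 2 of 9 (adjusted p up to 0.135) for Hand2.

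The other marker lists held 0 calls. Macrophage markers summed to 17930 to 21000 in Sham-Sham and 20410 to 27750 in Burn-CLP, with 16 of 26 tested and a median change of 0.35; Ctss, a lysosomal protease of antigen presentation, differed by 0.99 ± 0.25 (adjusted p = 0.087), the receptor gene Csf1r by 1.02 ± 0.32 (adjusted p = 0.145), Ctsb by -0.16 ± 0.15 (adjusted p = 0.582) and Cd14 by 0.65 ± 0.30 (adjusted p = 0.263). Lymphocyte markers summed to 4240 to 4672 in Sham-Sham and 3809 to 4234 in Burn-CLP, with Cd2 at -0.51 ± 0.24 (adjusted p = 0.277), Klrb1b at -0.90 ± 0.44 (adjusted p = 0.283), Cd4 at 0.02 ± 0.20 (adjusted p = 0.961) and Lck at 0.16 ± 0.21 (adjusted p = 0.71). Endothelial markers summed to 7036 to 7838 in Sham-Sham and 6326 to 7508 in Burn-CLP, with Kdr at -0.76 ± 0.28 (adjusted p = 0.191), Tie1 at -0.49 ± 0.24 (adjusted p = 0.291) and Fcgr2b at 0.02 ± 0.22 (adjusted p = 0.967). Bile duct markers summed to 7570 to 8938 in Sham-Sham and 6791 to 7271 in Burn-CLP, with Aqp1 at 0.78 ± 0.23 (adjusted p = 0.135), Spp1 at -0.85 ± 0.30 (adjusted p = 0.173), Krt18 at -0.37 ± 0.17 (adjusted p = 0.258) and Krt8 at -0.29 ± 0.20 (adjusted p = 0.442). Red blood cell and platelet markers summed to 14210 to 17030 in Sham-Sham and 11390 to 13560 in Burn-CLP, with the platelet chemokine gene Pf4 at 1.19 ± 0.28 (adjusted p = 0.0767), Hbb at -0.41 ± 0.16 (adjusted p = 0.21) and Hba-a3 at -0.61 ± 0.23 (adjusted p = 0.203). The lymphocyte, bile duct and blood sums were lower on every Burn-CLP array than on every Sham-Sham array, and the hepatocyte and neutrophil sums higher. Bright members weigh most in such sums: Krt18 and Krt8 for bile duct, Hbb for blood and Lcn2 for neutrophils. The hepatocyte sum includes Tat, at 3470, 5198 and 2975 in Sham-Sham and 11850, 14090 and 10160 in Burn-CLP. Median changes were -0.17, 0.09 and -0.05 for the lymphocyte, bile duct and blood lists. For the hepatocyte and neutrophil lists they were 0.04 and 0.56. The part of these shifts in the results was not tested.

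Solute carriers outside the amino acid group held 2 called falls among 37 genes. Slc34a2, a sodium-phosphate cotransporter gene, read 584, 379.9 and 304 in Sham-Sham, and 115, 114 and 97.0 in Burn-CLP. Slc34a2 fell 3.76-fold (-1.91 ± 0.24, adjusted p = 0.0121), and Slc13a4, a sodium-sulfate cotransporter gene, read 599, 649 and 861 in Sham-Sham, and 120, 139 and 279 in Burn-CLP. Slc13a4 fell 4.16-fold (-2.06 ± 0.31, adjusted p = 0.0286). Their calls held in 7 of 9 (adjusted p up to 0.0572) and 3 of 9 (adjusted p up to 0.113) fits. Of the list 10 genes lay below (27%) and 3 above (8.11%) all Sham-Sham arrays, against 11% and 11.3% of all genes. Bile acid genes had 0 calls of 27, with the bile acid receptor gene Nr1h4 at -0.89 ± 0.20 (adjusted p = 0.0684) and the racemase gene Amacr at -0.77 ± 0.20 (adjusted p = 0.101). Nuclear receptors and hepatocyte factors had 0 of 39, with the forkhead gene Foxa3 at 0.58 ± 0.18 (adjusted p = 0.139). Complement and coagulation had 0 of 27, with the clotting factor gene F5 at 0.79 ± 0.23 (adjusted p = 0.122) and the lectin pathway protease gene Masp1 at -0.38 ± 0.19 (adjusted p = 0.286). Cell cycle genes had 0 of 29, with the inhibitor gene Cdkn1a at 1.20 ± 0.32 (adjusted p = 0.105) and the replication gene Mcm4 at -0.83 ± 0.22 (adjusted p = 0.0965). Circadian clock genes had 0 of 15, with 4 above and 0 below and the clock output gene Dbp at 0.99 ± 0.29 (adjusted p = 0.126). Antioxidant genes had 0 of 30, with the superoxide dismutase gene Sod3 at -0.93 ± 0.20 (adjusted p = 0.0685) and the peroxiredoxin gene Prdx4 at -0.90 ± 0.24 (adjusted p = 0.103). MHC class II genes had 0 of 10, with the peptide loading gene RT1-DMa at 0.91 ± 0.37 (adjusted p = 0.221), and carbonic anhydrases had 0 of 8 at the brightest probe set.

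Of the 88 named genes 48 stood in no list, and those with the smallest p are given here where they have not been described above. Lrrc51, a gene of the leucine-rich repeat family, read the floor on all 3 Sham-Sham arrays, and 209, 214 and 223 in Burn-CLP. Lrrc51 rose at least 3.33-fold (1.73 ± 0.15, adjusted p = 0.00202). Mid1, which encodes a microtubule-bound ubiquitin ligase, read the floor on all 3 Sham-Sham arrays, and 181, 209 and 241 in Burn-CLP. Mid1 rose at least 3.22-fold (1.69 ± 0.17, adjusted p = 0.00356). Both were at the floor on every Sham-Sham array and kept their call without each array. Grk6, a kinase of G protein-coupled receptors, read 304, 258 and 209 in Sham-Sham, and the floor on all 3 Burn-CLP arrays. Grk6 fell at least 3.92-fold (-1.97 ± 0.24, adjusted p = 0.0111), with -0.39 at its dimmer probe set (adjusted p = 0.272). Nrep, a gene known from neural regeneration, read 1826, 1094 and 867 in Sham-Sham, and 76.8, 107 and 126 in Burn-CLP. Nrep fell 11.9-fold (-3.57 ± 0.50, adjusted p = 0.0224). Tmem131, which encodes a membrane protein of collagen secretion, read 191, 203 and 200.3 in Sham-Sham, and 443, 505 and 426 in Burn-CLP. Tmem131 rose 2.30-fold (1.20 ± 0.17, adjusted p = 0.0236). The Grk6 call held in 7 of 9 (adjusted p up to 0.0555) fits, that of Nrep in 5 of 9 (adjusted p up to 0.105) and that of Tmem131 in 4 of 9 (adjusted p up to 0.105).

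Dnase1, the secreted endonuclease that degrades extracellular DNA, read the floor on all 3 Sham-Sham arrays, and 167, 176 and 136 in Burn-CLP. Dnase1 rose at least 2.45-fold (1.29 ± 0.19, adjusted p = 0.0246). Smco4, a small membrane protein gene, read 676, 482 and 829 in Sham-Sham, and 212, 177 and 258 in Burn-CLP. Smco4 fell 3.03-fold (-1.60 ± 0.24, adjusted p = 0.03). The membrane serine protease gene Tmprss2 read 186, 129.9 and 127 in Sham-Sham, and the floor on all 3 Burn-CLP arrays. Tmprss2 fell at least 2.24-fold (-1.17 ± 0.18, adjusted p = 0.0323). Gnat1, known as the rod transducin subunit, read 65.3 on 1 and the floor on 2 Sham-Sham arrays, and 189, 369.9 and 170.1 in Burn-CLP. Gnat1 rose 3.52-fold (1.81 ± 0.28, adjusted p = 0.0323). These were dim genes except Smco4, and for Tmprss2 every Burn-CLP array lay at the floor. The progestin receptor gene Paqr7 read 1058, 1718 and 1509 in Sham-Sham, and 488, 403 and 551 in Burn-CLP. Paqr7 fell 2.94-fold (-1.55 ± 0.25, adjusted p = 0.0331). Samd11 read 154, 131 and 125 in Sham-Sham, and 65.2 on 1 and the floor on 2 Burn-CLP arrays. Samd11 fell 2.10-fold (-1.07 ± 0.17, adjusted p = 0.035). Calls held in 4 of 9 (adjusted p up to 0.107) fits for Dnase1, 4 of 9 (adjusted p up to 0.113) for Smco4, 2 of 6 (adjusted p up to 0.108) that tested it for Tmprss2, 4 of 9 (adjusted p up to 0.0843) for Gnat1, 4 of 9 (adjusted p up to 0.127) for Paqr7 and 3 of 9 (adjusted p up to 0.118) for Samd11.

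The remaining called genes of no list, outside the 20 with the smallest p, are given by their folds. Of those that rose, the transcription elongation factor gene Ell2 rose 2.69-fold, the chemokine gene Cxcl14 rose 2.84-fold, Phrf1 rose 2.81-fold, the dopamine receptor gene Drd2 rose 2.38-fold, Tcp11l2 rose 1.99-fold, Sh2d4a rose 1.97-fold and Ntf3, which encodes a neurotrophin, rose at least 1.95-fold. Ell2 read 509.7, 637 and 591 in Sham-Sham, and 1338, 2330 and 1203 in Burn-CLP. Among the falls, the serine synthesis gene Phgdh fell 2.94-fold (-1.56 ± 0.29, adjusted p = 0.0472), and the membrane glycoprotein gene Atrn fell 3.24-fold (-1.69 ± 0.31, adjusted p = 0.0472), although the other Atrn probe set gave 0.16 (adjusted p = 0.876). Stn1, a telomere maintenance gene, fell 3.14-fold, Vsig10l fell 3.05-fold, Tnrc18 fell 2.83-fold, the ubiquitin-conjugating enzyme gene Ube2e2 fell 2.65-fold and the endosomal trafficking gene Rab11fip4 fell 2.66-fold. Zfand4 fell at least 2.45-fold, Kctd2 fell 2.30-fold, the dystrophin relative Utrn fell at least 2.26-fold, and the spindle checkpoint gene Mad1l1 fell 2.21-fold with its brighter probe set at -1.58 (adjusted p = 0.0934). Zbtb34 fell 2.03-fold, Lrrc15 fell at least 1.85-fold, the galanin receptor gene Galr3 fell 1.80-fold and the calcium-binding protein gene Cib2 fell 1.79-fold. These 22 calls held in 0 to 4 of the 9 fits without 1 array, of which only 6 tested Utrn and Lrrc15, with adjusted p up to 0.167.

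**Figure D4:**
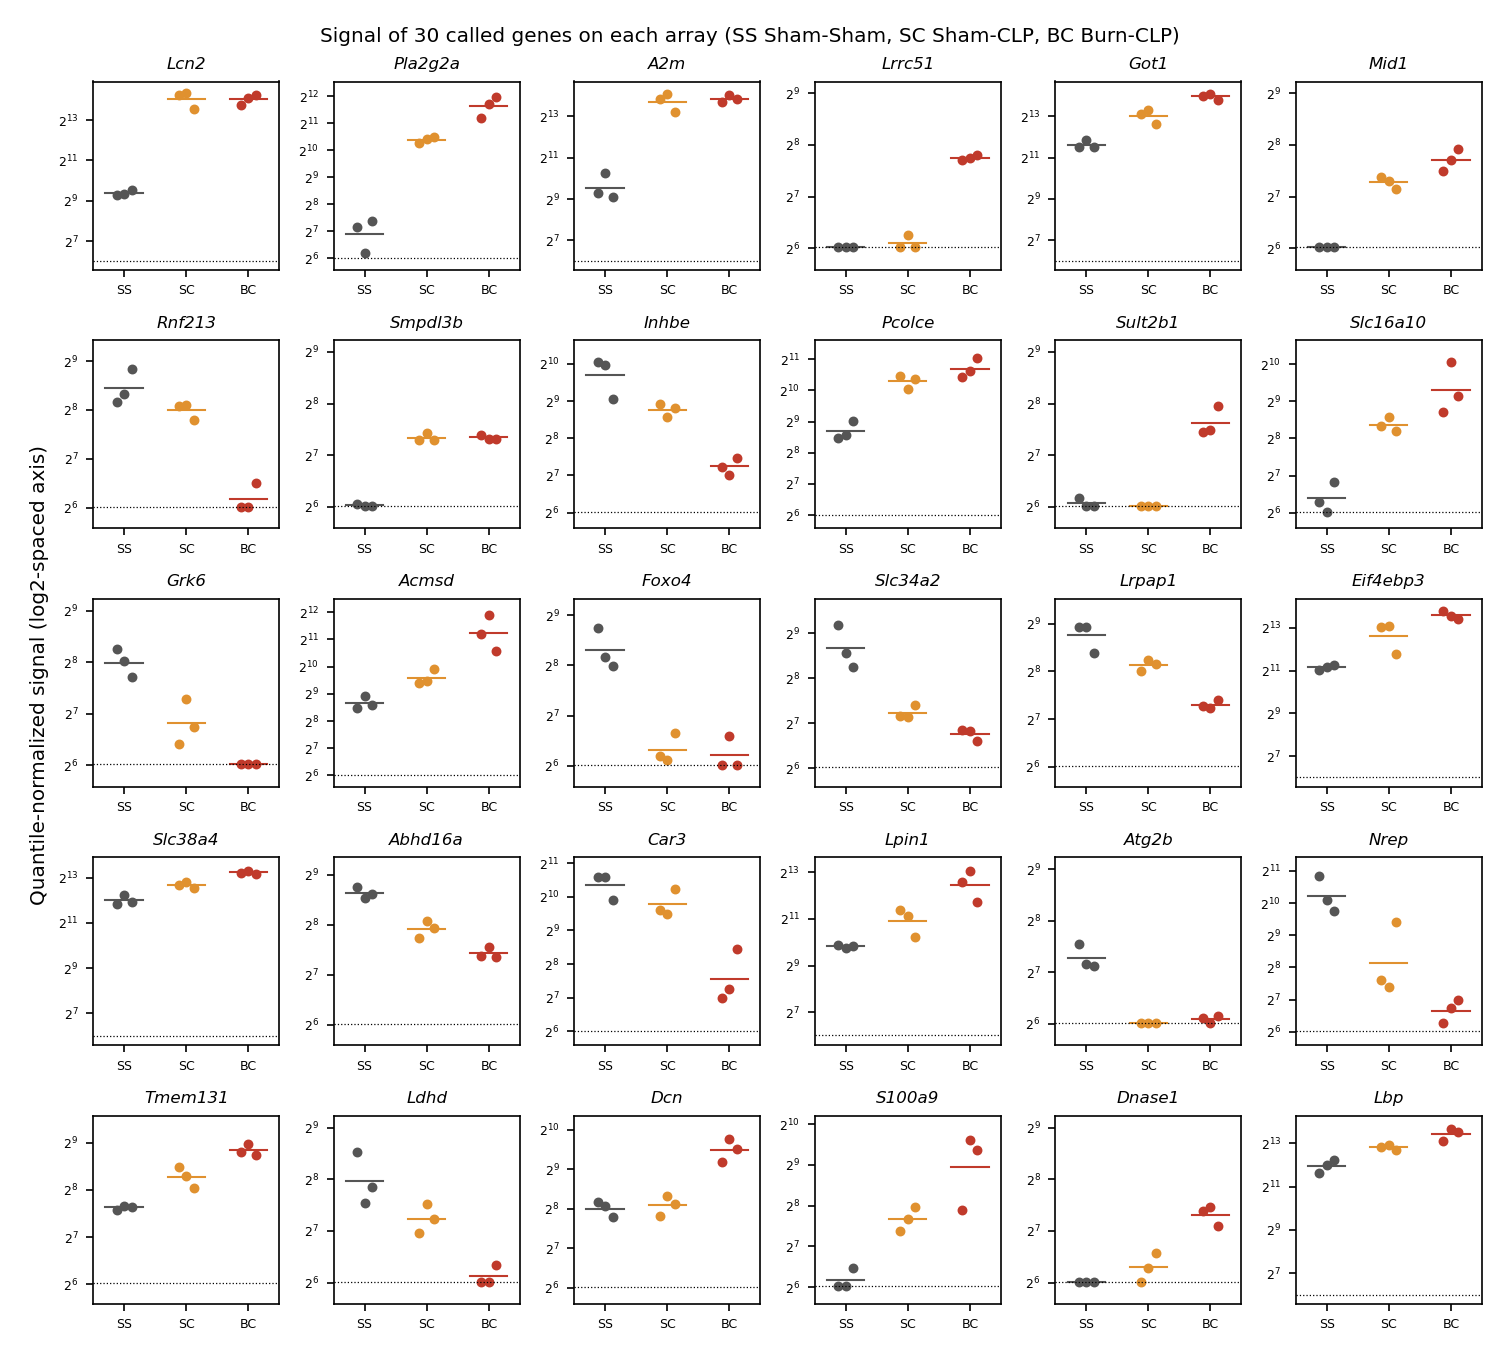
Signals on each of the 9 arrays (points; vertical axis log2-spaced) are shown for the 30 called genes with the smallest p, with bars at the mean of log2 signals in Sham-Sham (SS), Sham-CLP (SC) and Burn-CLP (BC) and a dotted line at the floor of 64.8. The Sham-Sham and Burn-CLP points do not overlap in any panel, which holds for all 102 called probe sets. Lrrc51, Sult2b1 and Atg2b are among the genes with Sham-CLP points at or near the floor.

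Just outside the threshold, with adjusted p from 0.0503 to 0.0531, were 10 named genes with differences as large as many called ones. The chemokine gene Cxcl12 differed by -1.31 ± 0.25, with 1965, 1340 and 1613 in Sham-Sham and 651, 470.1 and 905 in Burn-CLP. The fatty aldehyde dehydrogenase gene Aldh3a2 differed by -1.19 ± 0.23, with 5256, 7009 and 7386 in Sham-Sham and 3380, 2089 and 3220 in Burn-CLP. The leptin receptor gene Lepr differed by 1.01 ± 0.19, the ADP-ribose hydrolase gene Nudt9 by 1.28 ± 0.24, the kinase gene Tesk1 by 1.32 ± 0.25 and Bnip3 by 1.51 ± 0.29. Lower were the kinesin gene Kif1c at -1.63 ± 0.31, the MYC antagonist gene Mxi1 at -1.10 ± 0.21, the endosomal GTPase gene Rab22a at -1.18 ± 0.22 and C2cd2 at -0.89 ± 0.17. None of these 10 had overlapping groups, which held for 21.5% of all probe sets tested. Genes picked for a small p are likely to lack overlap, so this adds no support.

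The same probe sets were set beside the Sham-CLP group, which shares the Sham-Sham arrays with this comparison, so that its changes against Sham-Sham are not independent of those above. Against Sham-Sham, Sham-CLP liver had 8 calls (0.0592%). For Lcn2 the change was 4.65 in Sham-CLP and 4.65 in Burn-CLP, for A2m 4.18 and 4.32, for Spink1 3.36 and 3.23, for Smpdl3b 1.30 and 1.31 and for Foxo4 -1.98 and -2.09. For Igfals the values were -0.69 and -3.71, for Car3 -0.58 and -2.79, for Aldoa -0.0037 and 1.13, for Dcn 0.08 and 1.48, for Mcl1 0.16 and 1.15 and for Alad -0.25 and -1.56. These genes were chosen after their values were seen, the first set for alike and the second for unlike changes. The second set did not pass in the direct test of Burn-CLP against Sham-CLP, with adjusted p of 0.207 for Igfals, 0.176 for Aldoa and 0.131 for Dcn.

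The direct test called 2 of 13523 probe sets (0.0148%), both among the 102 and both higher in Burn-CLP. Lrrc51 differed by 1.66 ± 0.15, adjusted p = 0.0121 between Burn-CLP and Sham-CLP, with 75.9 on 1 and the floor on 2 Sham-CLP arrays. Sult2b1 differed by 1.61 ± 0.18, adjusted p = 0.0373, with the floor on all 3 Sham-CLP arrays. The count of direct calls among the 102 was 1 without Sham-Sham 1 or Sham-Sham 2, 5 without Sham-Sham 3, 12 without Burn-CLP 3 and 0 without any other array.

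**Figure D5:**
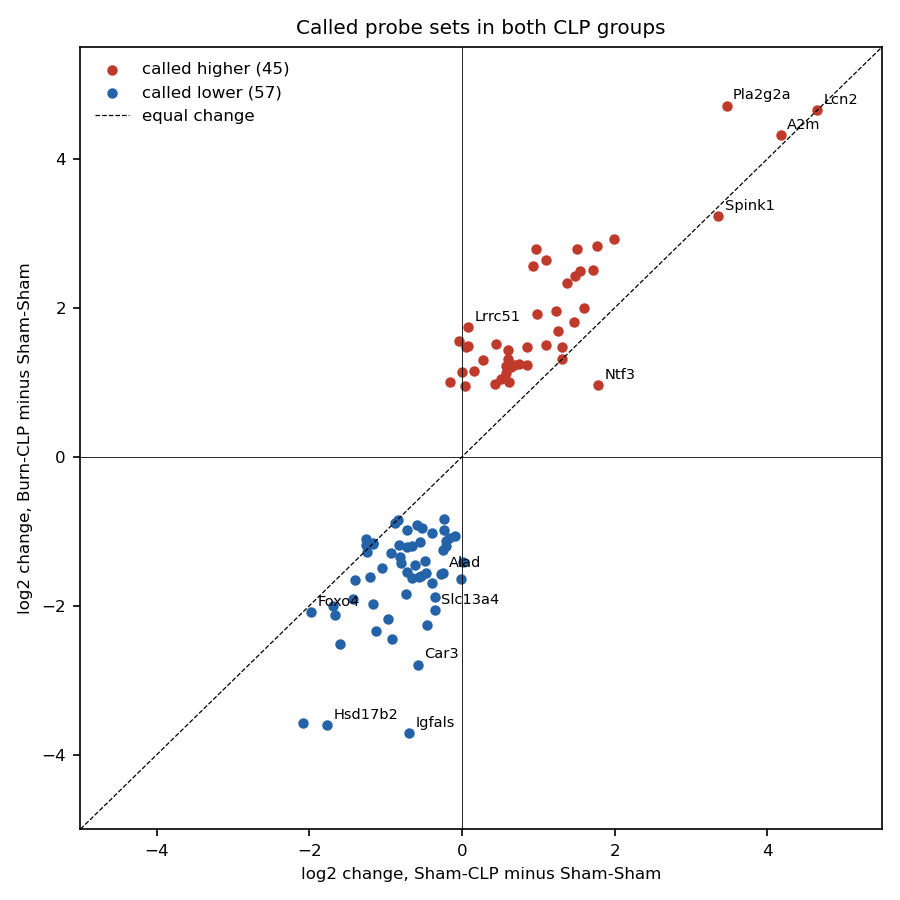
Each of the 102 called probe sets is plotted by its log2 change in Sham-CLP (horizontal axis) and in Burn-CLP (vertical axis), both against the same Sham-Sham arrays, red where higher and blue where lower in Burn-CLP; the dashed line marks equal change. Lcn2 and A2m lie near the line, and Igfals and Car3 lie far below it.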

How the data were processed

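The 9 samples, 3 per group, are whole rat liver, each measured by 1 one-colour array of total RNA. The authors deposited linear intensity values for 15923 probe sets; these values had a common trimmed mean on all arrays, which shows a scaling whose software is not named in the labels or files. The 57 control probe sets were left out, and the other 15866 were quantile normalized over all 9 arrays, because deposited medians ran from 89.84% to 117.5% of their mean. Values were floored at the 20th percentile (64.77), and 13523 probe sets with at least 3 arrays above it were tested. R 4.3.3 and limma 3.58.1 (lmFit, eBayes) fitted all 9 arrays with 3 group means; adjustment was by Benjamini-Hochberg. Precision is limited by the number of arrays: 3 against 3 cannot give an exact two-sided permutation p under 0.1, so none was run.

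Symbols came from the supplied platform annotation, updated through RefSeq GRCr8 by Entrez identifier for 12748 probe sets and by accession for 2; 33 kept the supplied symbol, 312 had several and 2771 none, and these last were not named. Lists (40 of functions, 8 of cell markers) count the brightest probe set of each gene and carry no test. Every called probe set with 1 symbol is named; array signals are given for up to 4 called members per list and the 20 of no list with the smallest p, values for the 2 smallest p of lists without a call and the 2 brightest markers. The members and lists were chosen with earlier results of these data known. The steps were tested on simulated data. Of 88 named genes, 74 had an entry in the RefSeq promoter table. Alternatives were 8 other settings and each array left out, with 1 setting added after seeing the data.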

Additional observations from a re-analysis of the deposited data

Results flagged for a closer look

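Lrrc51 and Sult2b1 were singled out because their changes against Sham-Sham differed between the burned and the unburned CLP group by a direct test. For Lrrc51 Burn-CLP exceeded Sham-CLP by 1.66 ± 0.15, adjusted p = 0.0121. For Sult2b1 the difference was 1.61 ± 0.18, adjusted p = 0.0373. Both genes were dim: 2 of 3 Sham-CLP arrays lay at the floor for Lrrc51 and all 3 for Sult2b1. Arrays at the floor show no spread, so the SE and p-values of these direct tests can be too small. The number of direct calls also changed with the arrays left out, as given above.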

How the results depend on the processing

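Of the 102 calls, 83 were shared with the 92 under the deposited scaling. Counts of all calls were 53 with the floor at the 10th percentile, 13 in a fit of only the groups compared, 59 with the replicate number as a block, 267 with array weights and 319 with a trended and robust prior variance. Named calls that held, of 90, numbered 42 without the filter and 38 with the lower floor. They numbered 11 in the fit of only the groups compared and 49 with the replicate block. With all 9 arrays above the floor 53 held. Those were all the named calls that this filter let through, and the others were not tested. Gene lists with a call numbered 23, against 13 with the lower floor, 5 with only the groups compared and 38 with the trended prior. Direct calls of Burn-CLP against Sham-CLP among the 102 were 2, against 1 with the deposited scaling, 0 with all 9 arrays above the floor, 1 with the lower floor, 0 with the replicate block, 20 with array weights and 7 with the trended prior. The filter for all 9 arrays above the floor left Lrrc51 and Sult2b1 untested. Without 1 array in turn, all calls ran from 19 to 643, named calls that held from 16 to 87, lists with a call from 10 to 35 and direct calls from 0 to 12. The cause of these shifts was not tested. Same-numbered Sham-Sham and Burn-CLP arrays showed no shared deviation (correlations -0.026, 0.045 and 0.015). Such values cannot settle whether the numbers pair the arrays, which the labels do not state. With the control probe sets kept in the normalization, a setting chosen after seeing the data, 101 were called. Of 1574 values of named calls over the 18 alternatives, 891 kept their call and none (0) turned. The called groups did not overlap, so a turn was hardly possible. Of 48 list medians 15 changed sign in some alternative: amino acid breakdown, gluconeogenesis and glycogen, glycolysis, cholesterol synthesis and uptake, fatty acid and triglyceride synthesis, metallothionein and antioxidant, iron and heme, autophagy and lysosome, tricarboxylic acid cycle, tryptophan, kynurenine and NAD, lymphocyte markers, endothelial markers, stellate cell and fibroblast markers, bile duct markers, red blood cell and platelet markers. Marker genes near 0 turned sign: Serpina1 read 0.003 with the deposited scaling, Cd4 -0.094 with array weights, and, leaving out 1 array in turn, Cd4 ran from -0.133 to 0.182 and Fcgr2b from -0.13 to 0.153. No list median (0 of 48) changed sign with the deposited scaling. The number of arrays and signals near the floor limit all of these results.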

Other observations

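Some of the largest differences did not pass, and in them the arrays of a group lay far apart; the genes here were chosen after their values were seen. The brighter Car3 probe set read 8302, 6397 and 3885 in Sham-Sham, and 162, 169.7 and 1430 in Burn-CLP, a difference of -4.12 ± 0.80 (adjusted p = 0.0532). Bdh1, the enzyme that makes 3-hydroxybutyrate, read 1695, 3785 and 4567 in Sham-Sham, and 147 and 1145 on 2 and the floor on 1 of the Burn-CLP arrays, a difference of -3.80 ± 0.91 (adjusted p = 0.0781), and its other probe set differed by -3.74. G0s2, an inhibitor of the triglyceride lipase, read 2578, 1528 and 1647 in Sham-Sham, and 705 on 1 and the floor on 2 Burn-CLP arrays, a difference of -3.70 ± 0.77 (adjusted p = 0.0603). Cyp2c11, the main male-specific P450 of rat liver, read 14640, 5881 and 13020 in Sham-Sham, and 811, 367 and 2988 in Burn-CLP, a difference of -3.43 ± 0.67 (adjusted p = 0.0532). The corticosteroid-binding globulin gene Serpina6 read 5813, 5033 and 6506 in Sham-Sham, and 429.6, 410.5 and 1745 in Burn-CLP, a difference of -3.09 ± 0.63 (adjusted p = 0.0591). In these 5 genes Burn-CLP 3 lay closest to the Sham-Sham arrays.

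Among rises that did not pass, the mTORC1 inhibitor gene Ddit4 read 233 and 115 on 2 and the floor on 1 of the Sham-Sham arrays, and 584, 3356 and 365 in Burn-CLP, a difference of 2.90 ± 0.77 (adjusted p = 0.101). The P450 gene Cyp3a9 read 383, 242 and 785 in Sham-Sham, and 1399, 5357 and 2374 in Burn-CLP, a difference of 2.65 ± 0.55 (adjusted p = 0.0603). The binding protein gene Igfbp2 read 1285, 1580 and 2501 in Sham-Sham, and 14700, 9759 and 3466 in Burn-CLP, a difference of 2.20 ± 0.50 (adjusted p = 0.0707). Burn-CLP 2 was highest for Ddit4 and Cyp3a9, and Burn-CLP 1 for Igfbp2.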
